A study of Mus musculus with 6 samples.

Results

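The enzymes that make, use and recycle methionine in liver were examined in aged mice with and without SIRT7, a nuclear deacylase of the sirtuin family. The set holds 10 of the 54115 genes in the data. It was put together from the methionine cycle, the betaine branch of this cycle and transsulfuration, and holds *Mat1a*, *Gnmt*, *Pemt*, *Ahcy*, *Bhmt*, *Gm5096*, *Bhmt2*, *Mtr*, *Cbs* and *Cth*. *Gm5096* is a near-copy of *Bhmt*, so their reads were also summed. The genes were chosen by their place in these pathways with the differences of their CPM between these same livers in view, so their differences between genotypes are a description and not independent support for any of them.

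RNA was sequenced from the livers of 6 male mice, 3 WT and 3 *Sirt7* KO, which were 24 months old and had been fasted for 16 h. The KO line came from another laboratory, carries the *Sirt7* deletion in all tissues and had been backcrossed to C57BL/6J for several generations. Both genotypes were littermates from crosses of heterozygous parents. Each library was made from 1 ng of total RNA with SMART-seq HT and Nextera XT, chemistry that does not mark the strand, and the labels number the mice of each genotype as separate biological replicates.

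In the methionine cycle, methionine is activated to S-adenosylmethionine, which gives its methyl group to an acceptor and becomes S-adenosylhomocysteine, and this is cleaved to homocysteine. Homocysteine is either methylated back to methionine, with betaine or with methyl folate as the donor, or drawn off through cystathionine to cysteine. The liver expresses a methionine adenosyltransferase of its own and is a main site of the betaine reaction, and hepatocytes carry most of these enzymes.

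*Bhmt* encodes betaine-homocysteine methyltransferase, *Gm5096* is a retrogene that holds a *Bhmt* transcript in 1 exon, and *Bhmt2* encodes a related enzyme that uses S-methylmethionine. In GRCm38, *Bhmt* (ENSMUSG00000074768.6, 8 exons) lies on the minus strand of chromosome 13 from 93616675 to 93637961, and *Bhmt2* (ENSMUSG00000042118.7, 8 exons) lies on the same strand from 93655720 to 93674302. The transcripts of *Bhmt* and *Gm5096* align over 1865 bases with 8 differing bases and 4 gap bases, an identity of 99.6%. Over the 1221 coding bases, 4 bases differ, at positions 156, 348, 561 and 1185 counted from the first base of the start codon. Because the reads were 75 bases long, 77.2% of the coding windows of that length hold no difference, and a read from such a window cannot be assigned to either gene by its sequence.

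*Bhmt2* differs from *Bhmt* far more. Their coding sequences align over 1088 bases with 272 differing bases, and 0 of 1041 windows of 75 bases were without a difference. The first 120 coding bases of *Bhmt2*, from the GENCODE M21 transcript of GRCm38 like the other sequences here and written 5′ to 3′, are shown to set this relative against the near-copy, and capitals mark the 36 positions that differ from *Bhmt*.
Bhmt2 coding bases 1 to 120: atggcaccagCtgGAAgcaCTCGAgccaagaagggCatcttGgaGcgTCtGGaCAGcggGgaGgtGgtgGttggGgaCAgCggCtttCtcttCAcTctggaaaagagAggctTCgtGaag

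*Ahcy* (ENSMUSG00000027597.15, 10 exons), on the minus strand of chromosome 2 from 155059310 to 155074497, encodes S-adenosylhomocysteine hydrolase and also has a near-copy, the retrogene *Gm4737*. Their transcripts align over 2086 bases with 7 differing bases, an identity of 99.7%, and 85.0% of the coding windows of 75 bases hold no difference. The coding sequences differ at positions 459, 474, 1050 and 1068, which the capitals mark in the stretches below, shown because they hold the only coding bases by which reads of both genes can be told apart.
Ahcy coding bases 439 to 479: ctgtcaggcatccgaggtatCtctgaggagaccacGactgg
Ahcy coding bases 1030 to 1070: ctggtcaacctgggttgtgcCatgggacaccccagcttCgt

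**Figure D1:**
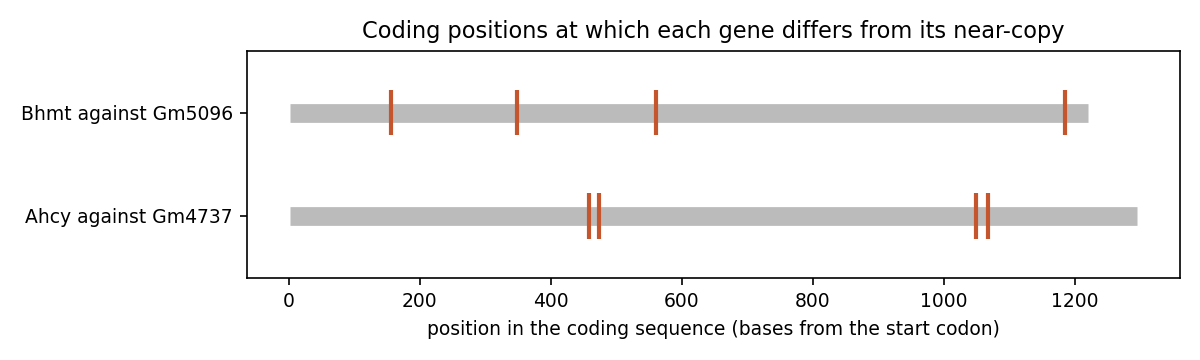
Positions, in bases from the start codon, at which the coding sequences of *Bhmt* and *Ahcy* (grey bars) differ from those of their near-copies (red lines). Each pair differs at 4 positions, and the 4 positions of *Ahcy* fall in 2 close pairs.

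*Gm4737* and *Gm5096* were the genes that shared most words of 31 bases, the default word length of the quantifier Salmon, with *Ahcy* (76.5% of its words) and *Bhmt* (63.4%). *Bhmt-ps1* shared 36.5% of the words of *Bhmt*, but was assigned no more than 15 reads in any mouse. For *Mat1a*, *Gnmt*, *Pemt*, *Mtr*, *Cbs* and *Cth* 0 words were shared with another gene. For *Bhmt2* the share was 11.4% over 124 other genes together, with *Cog6* first at 4.99%. *Bhmt* exons also overlap the antisense gene *Gm15622* over 187 bases, but this gene was assigned no more than 10 reads in any mouse.

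Depth was similar in both genotypes, with 10608035 to 13424776 reads in WT mice and 9994860 to 11107388 in *Sirt7* KO mice. Of the 12524 genes tested by edgeR's quasi-likelihood test, 0.00798% (1 gene) were called, for which an adjusted p-value under 0.05 and more than a 1.5-fold difference were needed. *Sirt7* was at 55.2, 45.5 and 47.3 CPM (read counts relative to library size, after TMM scaling) in WT mice and at 28.6, 41.8 and 40.8 CPM in KO mice. In TPM, which takes transcript length into account, the order was the opposite, with 34.4, 28.3 and 27.3 in WT mice and 34.7, 49.9 and 68.0 in KO mice. Reads of *Sirt7* thus remained in the KO mice and its level as a whole gene did not check the labels, by which the genotypes are named here. KO mouse 1 stood apart from the other KO mice. Its Spearman correlations with them over the tested genes were at most 0.952, against 0.973 between KO mice 2 and 3. Its correlations with WT mice 2 and 3 were higher, at 0.955 and 0.961. That with WT mouse 1 lay between those with KO mice 2 and 3. By this measure KO mouse 1 was thus closer to WT mice 2 and 3 than to the other KO mice, and the cause was not tested. The 8 hepatocyte markers summed to 54400 to 58850 CPM in WT mice and to 53470 to 63820 CPM in KO mice, and 0 of the 8 had an unadjusted p-value under 0.05. Kupffer, endothelial, stellate, bile duct and lymphocyte markers had ranges that overlapped between genotypes, none of these genes was called, and no marker was at 0 in all mice. Red cell markers summed to 374 to 546 CPM in WT mice and 446 to 915 CPM in KO mice, all 5 had a log2 fold change above 0, and for 1 the unadjusted p-value was under 0.05. This was *Alas2*, the first enzyme of heme synthesis in red cells, at 49.6, 94.5 and 90.2 CPM in WT mice and 128.7, 197.5 and 234.8 CPM in KO mice without overlap (adjusted p = 0.17 in edgeR), while the 4 globin genes overlapped. *Alas2* is named because it was the only marker of this list under that level, after its values were seen. Their part in the values below was not tested.

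In the comparison of genotypes, 8 of the 10 genes were higher and 2 were lower in *Sirt7* KO mice by their log2 fold change, with a median of 0.38 against -0.0061 over all tested genes. None of the 10 was called (0 of 10 in edgeR, against the 0.00798% of all genes above, 1 in DESeq2 without transcript length offsets, *Gm5096*, and 2 with them, *Bhmt* and *Gm5096*, against 2.11% and 1.81% of all genes). The lowest adjusted p-values, over all 12524 genes, were 0.16 for *Gm5096* and 0.22 for *Bhmt*. Before adjustment 4 genes had a p-value under 0.05, all higher in KO mice (*Bhmt*, *Gm5096*, *Bhmt2* and *Cth*), where 6.54% of all genes were higher and 4.78% lower at this level. Every KO mouse was above every WT mouse in *Bhmt* and *Gm5096* (8.74% of all genes) and below in *Ahcy* (8.09%). As these genes were listed from this contrast, nothing is read from these counts. In bulk liver RNA, fewer cells of a type and less RNA per cell cannot be told apart.

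**Figure D2:**
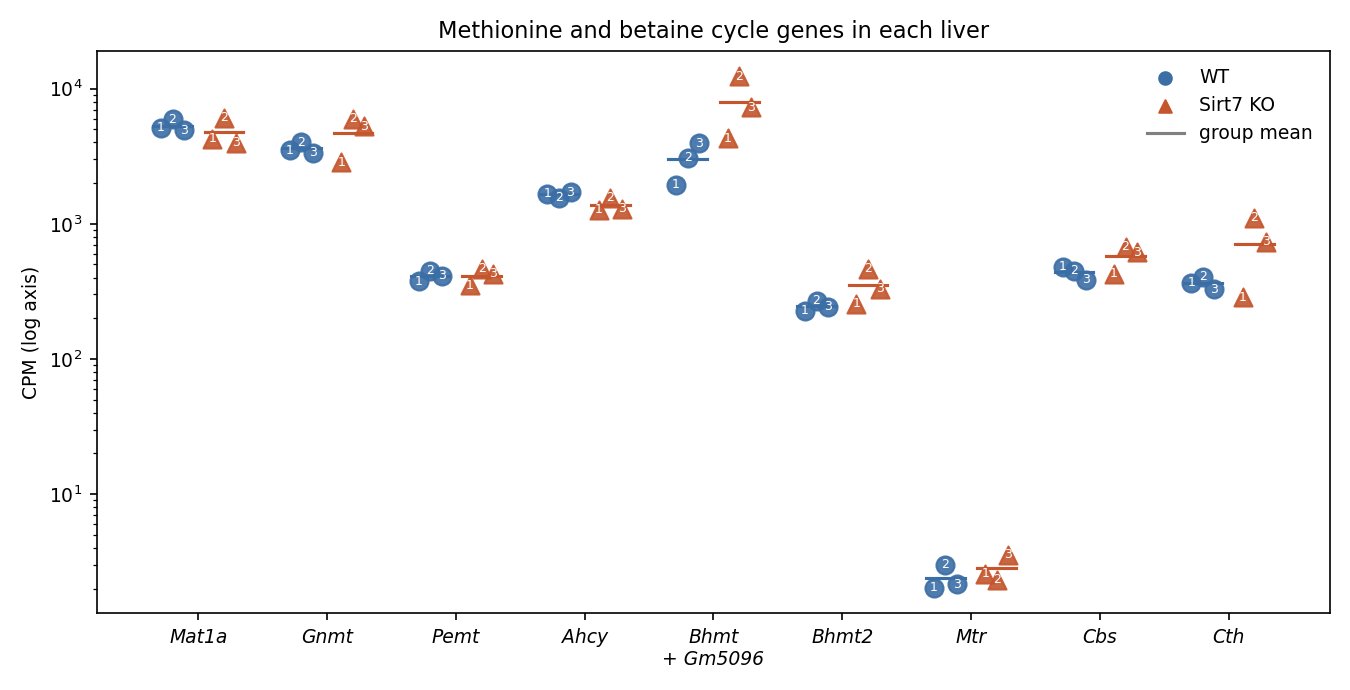
CPM of each gene in the liver of each mouse (log axis), with WT mice as blue circles, *Sirt7* KO mice as red triangles, the mouse number inside each symbol and a line at the mean of each genotype. *Bhmt* and *Gm5096* are summed. Only in this sum does every KO mouse lie above every WT mouse, and only in *Ahcy* does every KO mouse lie below, by 3 CPM at the closest.

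The remethylation genes that use betaine had the largest differences. *Bhmt* was at 1952, 3072 and 3952 CPM in WT mice and at 4290, 12060 and 7129 CPM in KO mice. The lowest KO mouse, KO mouse 1, was close to the highest WT mouse, WT mouse 3, while KO mouse 2 was far above all others. The means were 2992 ± 1002 CPM (SD, n = 3) and 7826 ± 3931 CPM (SD, n = 3), and the log2 fold change was 1.39 (standard error, SE, of 0.39, adjusted p = 0.22 in edgeR).

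*Gm5096* (ENSMUSG00000069324.6), on chromosome 18, was assigned 0 reads in all WT mice and 29, 2572 and 1449 reads in the KO mice, or 2.65, 272.5 and 139.6 CPM. It passed the filter on low counts only through these KO reads, so it could not have been tested without a difference. Against a floor of 3 reads in each WT library, its mean in KO mice was 554-fold higher, and in KO mouse 1, the lowest, it was 10.6-fold higher. These folds take Salmon's assignment of reads to *Gm5096* in the KO mice as given, which could not be checked, so they are not lower bounds. As a share of the reads of *Bhmt* and *Gm5096* together, *Gm5096* took 0.0619% in KO mouse 1 (95% Wilson interval 0.0431 to 0.0888%), 2.21% in KO mouse 2 (2.13 to 2.30%) and 1.92% in KO mouse 3 (1.82 to 2.02%). With 0 reads, a limit set at 3 reads of the total was 0.0130%, 0.00886% and 0.00561% in WT mice 1, 2 and 3, below the upper ends of their Wilson intervals of 0.0167%, 0.0113% and 0.00719%. These limits and intervals cover counting error only, since reads without molecular identifiers are not independent molecules and since most stretches of both genes are identical.

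The sum of *Bhmt* and *Gm5096*, which does not depend on how reads were split between them, was 1952, 3072 and 3952 CPM in WT mice and 4293, 12330 and 7269 CPM in KO mice. Every KO mouse was again above every WT mouse. The log2 fold change of the sum was 1.41 (SE 0.39, adjusted p = 0.22 in edgeR), a fold change of 2.66, so the reads of *Gm5096* moved the estimate for *Bhmt* by little. Without KO mouse 1 it was 1.71 (adjusted p = 0.041), which passed the test, as did 1.95% of all genes (252) in that fit, and without KO mouse 2 it was 0.95 (adjusted p = 0.57).

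**Figure D3:**
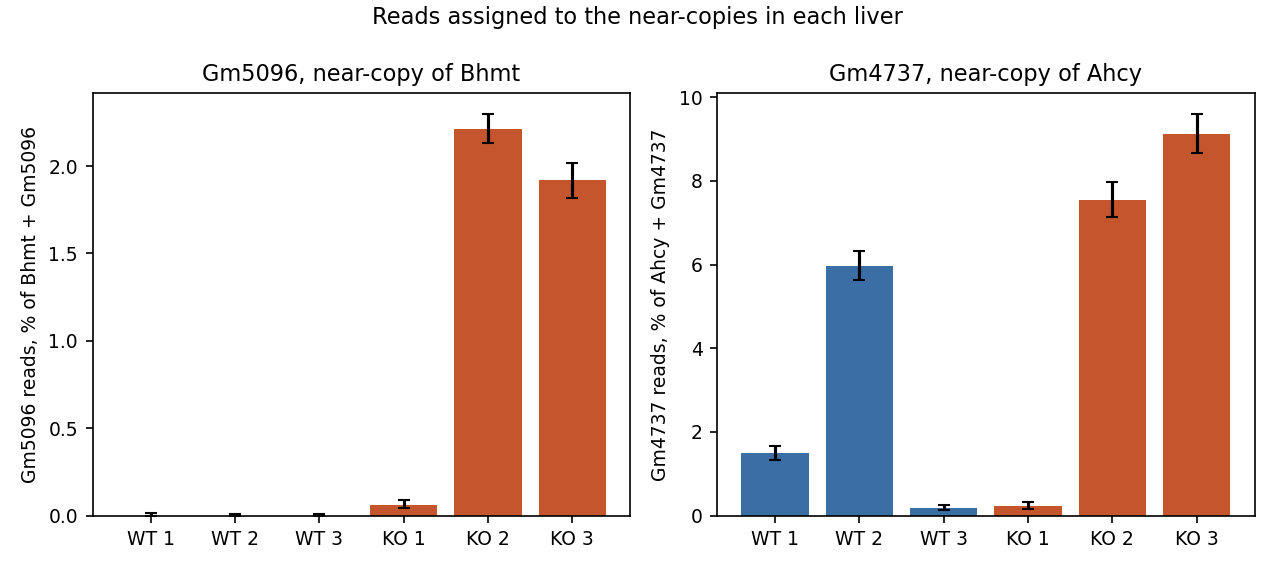
Share of reads assigned to the near-copy, in percent of the reads of gene and copy together, for *Gm5096* with *Bhmt* (left) and *Gm4737* with *Ahcy* (right) in each mouse (WT blue, *Sirt7* KO red), with 95% Wilson intervals as error bars. *Gm5096* had 0 reads in the 3 WT mice, while *Gm4737* was low in WT mouse 3 and KO mouse 1 and reached 5.97% in WT mouse 2.

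*Bhmt2*, the neighbour of *Bhmt* on chromosome 13, was at 227.2, 269.2 and 243.9 CPM in WT mice and at 256.7, 463.3 and 330.1 CPM in KO mice. KO mouse 1 fell within the WT range and the other KO mice lay above it. The log2 fold change was 0.50 (SE 0.22, adjusted p = 0.42), smaller than that of *Bhmt*. The ratio of *Bhmt* to *Bhmt2* reads within a mouse was 8.59, 11.4 and 16.2 in WT mice and 16.7, 26.0 and 21.6 in KO mice, so the ratio of KO mouse 1 was next to that of WT mouse 3.

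*Mtr* (ENSMUSG00000021311.9, chromosome 13, 12182712 to 12258113, minus strand, 33 exons) encodes methionine synthase, the enzyme of the folate route. It had few reads, with 24, 33 and 29 reads in WT mice and 28, 22 and 37 in KO mice. The genotypes overlapped, and the log2 fold change was 0.24 with a SE of 0.37.

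*Mat1a* (ENSMUSG00000037798.7, chromosome 14, 41105035 to 41124412, plus strand, 9 exons) encodes the methionine adenosyltransferase of adult liver, which makes S-adenosylmethionine. It was at 5117, 5941 and 4910 CPM in WT mice and at 4264, 6103 and 3968 CPM in KO mice, with a log2 fold change of -0.16 (SE 0.21). KO mice 1 and 3 lay below every WT mouse and KO mouse 2 above every WT mouse. Salmon divided its reads between an isoform of 3208 bases, which took 74.3% ± 5.01 (SD, n = 3) in WT and 77.4% ± 8.13 (SD, n = 3) in KO mice, and an isoform of 3468 bases, which took almost all the rest.

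Among the methyltransferases, *Gnmt* (ENSMUSG00000002769.9, chromosome 17, 46725664 to 46729168, minus strand, 6 exons) encodes glycine N-methyltransferase, which uses up surplus S-adenosylmethionine. Its values were 3490, 4005 and 3363 CPM in WT mice and 2845, 6001 and 5281 CPM in KO mice, with a log2 fold change of 0.38 (SE 0.27). KO mouse 1 was the lowest of all 6 mice and the other KO mice were the highest. Without KO mouse 1 the log2 fold change was 0.64 (adjusted p = 0.094), which did not pass the test either. Without KO mouse 2, the highest, it was 0.17 (adjusted p = 0.94 in edgeR).

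*Pemt* (ENSMUSG00000000301.16, chromosome 11, 59970614 to 60046489, minus strand, 7 exons) encodes the enzyme that makes phosphatidylcholine by methylating phosphatidylethanolamine. It was at 376.8, 448.4 and 413.0 CPM in WT mice and at 351.1, 463.9 and 426.2 CPM in KO mice. Its means, 412.7 ± 35.8 and 413.7 ± 57.4 CPM (SD, n = 3 each), differed by less than their SD, and the log2 fold change of 0.0035 (SE 0.16) changed sign with the scaling, from -0.10 with total counts to 0.0064 with RLE. A processed transcript of 424 bases was assigned 216, 140 and 209 *Pemt* reads in WT mice and 209, 0 and 0 reads in KO mice, where KO mouse 1 was within the WT range.

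*Ahcy* was at 1670, 1562 and 1708 CPM in WT mice and at 1273, 1559 and 1288 CPM in KO mice. KO mouse 2 was only 3 CPM below WT mouse 2, and the log2 fold change was -0.26 (SE 0.16, adjusted p = 0.59). *Gm4737* was assigned 299, 1094 and 45 reads in WT mice and 33, 1201 and 1343 in KO mice, or 1.49, 5.97 and 0.195% and 0.237, 7.55 and 9.13% of the reads of both genes. With these reads added to *Ahcy*, a sum chosen after seeing the data, the values were 1695, 1662 and 1711 CPM in WT mice and 1276, 1686 and 1417 CPM in KO mice. KO mouse 2 then lay within the WT range, and the log2 fold change was -0.21 (SE 0.16, adjusted p = 0.69), so the separation of genotypes in *Ahcy* depended on how reads were divided between it and its copy.

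Transsulfuration takes homocysteine to cysteine in consecutive steps. *Cbs* (ENSMUSG00000024039.15, chromosome 17, 31608894 to 31637238, minus strand, 16 exons), cystathionine beta-synthase, catalyzes the first. It was at 481.9, 447.9 and 385.3 CPM in WT mice and at 428.4, 678.8 and 613.8 CPM in KO mice, where KO mouse 1 was within the WT range and the others above it. The log2 fold change was 0.39 (SE 0.20, adjusted p = 0.51).

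The isoform of *Cbs* with 2403 bases (ENSMUST00000078509.11) took 70.2, 63.5 and 62.1% of its reads in WT mice and 56.5, 54.5 and 59.4% in KO mice. The isoform of 2533 bases (ENSMUST00000067801.13) took 23.9, 31.4 and 32.7% in WT mice and 35.7, 40.1 and 38.2% in KO mice. The genotypes did not overlap in either share, and KO mouse 1 lay with the other KO mice, unlike its level of the whole gene. Both isoforms together took most *Cbs* reads, so a lower share of one goes with a higher share of the other, and the shares are not independent observations. How many isoforms of the set, or of all genes, separate the genotypes in this way was not counted, so nothing is read from this separation. These shares are Salmon's estimates from reads that may fit both isoforms, and they were not tested.

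*Cth* (ENSMUSG00000028179.12, chromosome 3, 157894248 to 157925077, minus strand, 12 exons), cystathionine gamma-lyase, catalyzes the step that releases cysteine. Its values were 367.1, 406.4 and 326.6 CPM in WT mice and 285.3, 1109 and 734.2 CPM in KO mice. KO mouse 1 was below every WT mouse, while KO mice 2 and 3 were well above. The log2 fold change was 0.95 (SE 0.40, adjusted p = 0.41 in edgeR). Without KO mouse 1, the lowest KO mouse, it was 1.33 (adjusted p = 0.022), which passed the test, as did 1.95% of all genes in that fit. Without KO mouse 2, the highest, it was 0.48 (adjusted p = 0.83), which did not. Within each mouse, *Cth* relative to *Cbs* in TPM, a unit per transcript length, was 1.01, 1.18 and 1.12 in WT mice and 0.868, 2.20 and 1.63 in KO mice.

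**Figure D4:**
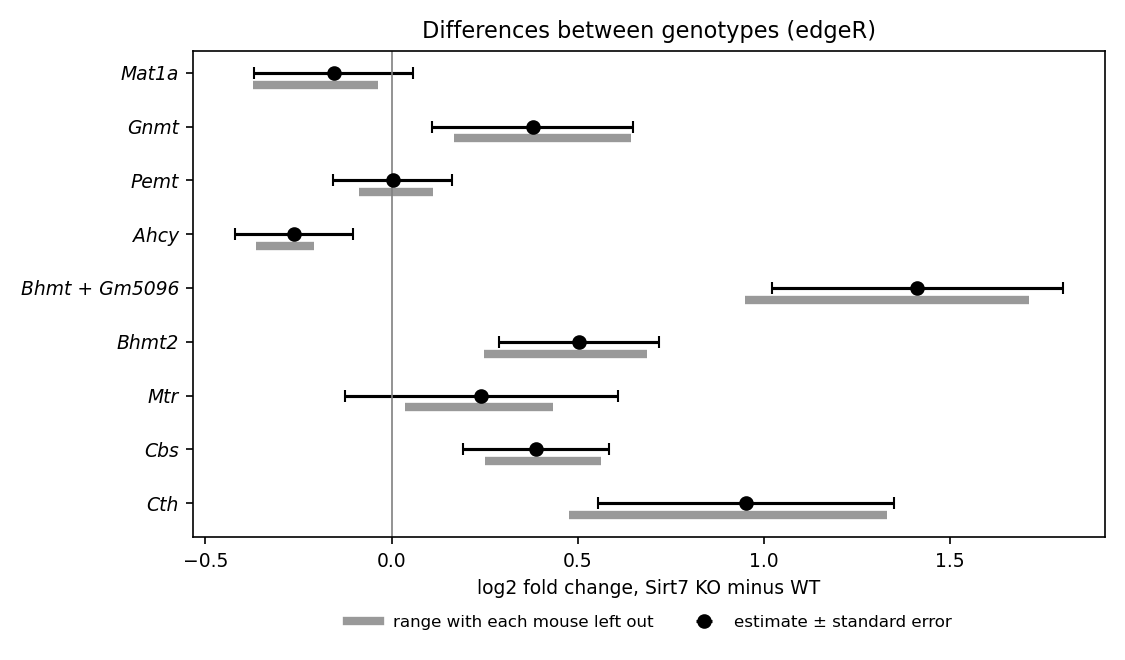
Log2 fold change between *Sirt7* KO and WT mice (horizontal axis) for each gene, with *Bhmt* and *Gm5096* summed. Points and bars give the edgeR estimate with its standard error, and grey bars the range when each mouse was left out in turn. The sum of *Bhmt* and *Gm5096* ranged from 0.95 to 1.71 and *Cth* from 0.48 to 1.33, while *Pemt* lay on both sides of 0.

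The KO mice also differed among themselves, which is given here as a description of the set only. KO mouse 2 was the highest KO mouse in 9 of the 10 genes, the exception being *Mtr*, and KO mouse 1 was the lowest in 8 of 10, the exceptions being *Mat1a* and *Mtr*. KO mouse 1 was above every WT mouse in *Bhmt* and *Gm5096* and below every WT mouse in 5 genes (*Mat1a*, *Gnmt*, *Pemt*, *Ahcy* and *Cth*). KO mouse 2 was above every WT mouse in 8 genes and KO mouse 3 in 7. The shares of all tested genes with such orders of single mice were not counted, so nothing is read from these counts. The 8 hepatocyte markers together were also lowest in KO mouse 1 (53470 CPM) and highest in KO mouse 2 (63820 CPM), but over a narrower range, and their part was not tested.

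Within each mouse, the 10 genes together took 1.53, 1.58 and 1.55% of all gene reads in WT mice and 1.38, 2.72 and 1.89% in KO mice, so the spread was wider in KO mice. *Bhmt* alone took 0.218, 0.301 and 0.400% in WT mice and 0.423, 1.14 and 0.678% in KO mice. Of the reads of the 10 genes, *Bhmt* and *Gm5096* took 14.3, 19.0 and 25.8% in WT mice and 30.7, 42.9 and 36.5% in KO mice. *Mat1a* took 37.4, 36.8 and 32.1% in WT mice and 30.5, 21.3 and 19.9% in KO mice. Both shares separated the genotypes with KO mouse 1 included. The *Bhmt* reads described above enter both, but that of *Mat1a* only through the total, and their part in it was not tested.

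Compared per transcript length, *Gnmt* was the most abundant gene of the set in WT mice at 3876 ± 288 TPM (SD, n = 3). *Mat1a* (1484 ± 125 TPM) and *Bhmt* (1110 ± 338 TPM) came next with ranges that overlapped. Then came *Ahcy* (610 ± 59.6 TPM), *Pemt* (524 ± 7.96 TPM), *Cth* and *Cbs* with overlapping ranges around their means of 198 and 180 TPM, *Bhmt2* (93.2 TPM, range 90.9 to 96.6) and *Mtr* (0.315 ± 0.158 TPM). In KO mice *Bhmt* had the second highest mean, 2862 ± 1493 TPM (SD, n = 3), and its range overlapped those of both *Gnmt* (4939 ± 1870 TPM) and *Mat1a* (1296 ± 340 TPM). In this order only *Mat1a* and *Ahcy*, and *Gm5096* and *Mtr*, were neighbours whose ranges did not overlap in KO mice. The ratio of *Bhmt* with *Gm5096* to *Mat1a* in TPM was 0.512, 0.690 and 1.09 in WT mice and 1.36, 2.72 and 2.47 in KO mice. The ratio of *Gnmt* to *Mat1a* was nearly the same in WT mice (2.63, 2.58 and 2.64) and in KO mouse 1 (2.58), and higher in KO mice 2 and 3 (3.76 and 5.11).

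The genes around these enzymes were described from 6 lists with 93 genes, of which 90 were tested. In the KO mice 53 of them were higher and 37 lower, and 0 were called in edgeR. DESeq2 called 3 without length offsets (*Csad*, *Aldh1l1* and *Ethe1*) and 1 with them (*Csad*), against 2.11% and 1.81% of all genes. At an unadjusted p-value under 0.05 in edgeR, 15 genes were higher and 4 lower. These are 16.7% and 4.44% of the lists, against 6.54% and 4.78% of all tested genes. The median log2 fold change was 0.10, against -0.0061 over all genes. Without KO mouse 1, 7 of these genes were called, in a fit that called 1.95% of all genes. Without KO mouse 2, 0 of them were called, in a fit that called 0 of all genes. All adjusted p-values below are from edgeR over all genes.

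Among 14 genes of methionine salvage and isoenzymes of the cycle, 6 were higher and 8 lower, with a median log2 fold change of -0.04. *Mat2a*, the methionine adenosyltransferase of most tissues other than liver, was at 135.6, 112.9 and 132.9 CPM in WT mice and at 115.0, 79.8 and 85.0 CPM in KO mice. KO mouse 1 overlapped the WT mice, and the log2 fold change was -0.45 (SE 0.18, adjusted p = 0.38). Of 18 genes of betaine and choline supply, 10 were higher and 8 lower, and 1 had an unadjusted p-value under 0.05, *Etnk2*, an ethanolamine kinase with a log2 fold change of 0.76 (SE 0.28, adjusted p = 0.35).

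The folate cycle supplies the methyl group that methionine synthase uses, and 12 of its 21 tested genes were higher and 9 lower (median log2 fold change 0.23). *Aldh1l1*, which oxidizes formyl tetrahydrofolate, was at 685.9, 706.2 and 937.8 CPM in WT mice and at 801.5, 2224 and 1776 CPM in KO mice, so that KO mouse 1 again lay within the WT range. The log2 fold change was 1.04 (SE 0.33, adjusted p = 0.29). It was 1.37 without KO mouse 1, the lowest KO mouse (adjusted p = 0.020), in a fit that called 1.95% of all genes. Without KO mouse 2, the highest KO mouse, *Aldh1l1* was not called. The folate carriers differed in sign, with a log2 fold change of 0.57 (SE 0.22) for *Slc46a1*, the proton-coupled transporter, and of -0.74 (SE 0.23) for *Slc19a1*, the reduced folate carrier. *Slc19a1* was at 21.1, 25.1 and 26.4 CPM in WT mice and at 9.80, 18.7 and 15.2 CPM in KO mice without overlap (adjusted p = 0.28).

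Cobalamin is the cofactor of methionine synthase and of methylmalonyl-CoA mutase. Of 9 genes that handle it, 7 were higher and 2 lower. *Mut*, the mutase itself, was at 97.4, 114.8 and 126.6 CPM in WT mice and at 138.6, 157.7 and 153.3 CPM in KO mice, and *Mmadhc*, a trafficking protein, was at 87.6, 99.7 and 90.8 CPM in WT mice and at 75.2, 58.6 and 64.4 CPM in KO mice. Neither gene overlapped between genotypes, and their log2 fold changes were 0.41 (SE 0.15, adjusted p = 0.35) and -0.49 (SE 0.15, adjusted p = 0.25). *Mmab*, which makes adenosylcobalamin, had a log2 fold change of 1.07 (SE 0.37, adjusted p = 0.33).

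Of 14 other methyltransferases that use S-adenosylmethionine, 8 were higher and 6 lower, with 4 higher and 0 lower at an unadjusted p-value under 0.05. *Gamt*, which makes creatine, had a log2 fold change of 0.82 (SE 0.32, adjusted p = 0.38), and *Nnmt*, which methylates nicotinamide, one of 0.66 (SE 0.26, adjusted p = 0.38). Both overlapped between genotypes.

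Downstream of *Cth*, 10 of 14 genes of cysteine, taurine, sulfide and glutathione were higher and 4 lower. *Csad*, which decarboxylates cysteine sulfinate on the way to taurine, was at 233.9, 486.6 and 264.1 CPM in WT mice and at 155.4, 148.6 and 168.1 CPM in KO mice. Every KO mouse, KO mouse 1 included, was below every WT mouse, and the KO mice were closer together than the WT mice. The log2 fold change was -1.06 (SE 0.26, adjusted p = 0.19). DESeq2 called the gene without and with length offsets (adjusted p = 0.0029 and 0.024), as it did 2.11% and 1.81% of all genes. *Ethe1*, the mitochondrial persulfide dioxygenase, had a log2 fold change of 1.04 (SE 0.32, adjusted p = 0.27), and *Got1*, an aspartate aminotransferase that also acts on cysteine compounds, one of 0.96 (SE 0.39, adjusted p = 0.39). Both were higher in KO mice 2 and 3 than in any WT mouse, and KO mouse 1 lay within the WT range.

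**Figure D5:**
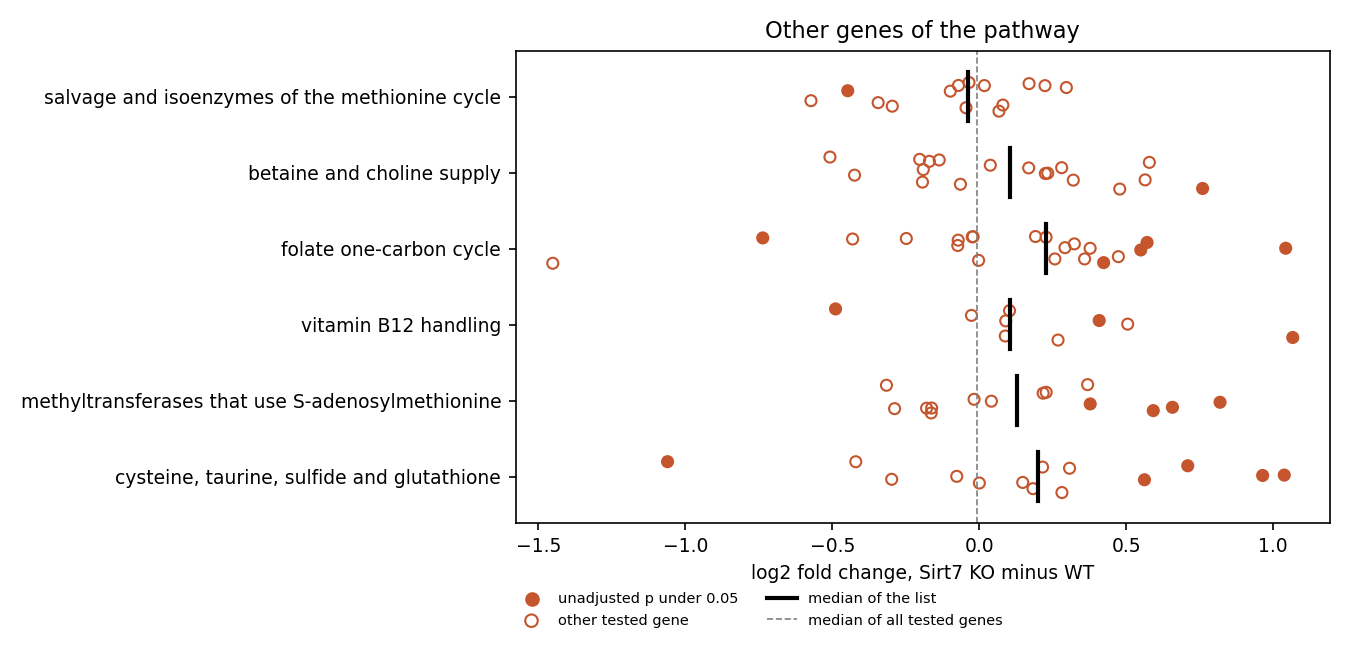
Log2 fold change between *Sirt7* KO and WT mice (horizontal axis) of the 90 tested genes in the 6 lists. Each circle is a gene, filled where its unadjusted p-value was under 0.05, black bars mark the median of a list and the dashed line the median of all tested genes. Every list holds genes on both sides of 0, and medians ran from -0.04 to 0.23.

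Over the 6 mice, the genes whose profile was most like the sum of *Bhmt* and *Gm5096* were *Aldh1b1*, *Acot11* and *Fasn*, with root mean square distances of 0.146, 0.149 and 0.175 on the log2 scale after each profile was centred on its mean. *Aldh1b1*, a mitochondrial aldehyde dehydrogenase, was at 27.8, 45.4 and 45.7 CPM in WT mice and at 61.7, 143.6 and 98.5 CPM in KO mice. *Acot11* was at 2.37, 4.81 and 6.14 CPM in WT mice and at 5.59, 15.7 and 9.30 CPM in KO mice. Its genotypes overlapped, as KO mouse 1 lay below WT mouse 3. *Fasn*, fatty acid synthase, was at 39.6, 44.6 and 56.7 CPM in WT mice and at 67.8, 220.9 and 123.9 CPM in KO mice. In each of these genes, as in the sum, KO mouse 2 was highest, KO mouse 3 next and WT mouse 1 lowest. Because the genes were picked for a profile like that of the sum, nothing is read from this shared order.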

How the data were processed

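Genotypes were taken from the sample labels. Per the submitters' processing notes, the authors trimmed reads with Trim Galore 0.6.5 and quantified transcripts of GRCm38 with Salmon 1.2.1. They deposited estimated counts per transcript, which are not normalized, and TPM, which take transcript length into account and sum to the same total in each mouse. No mice were pooled. Estimated counts were summed over the transcripts of each GENCODE M21 gene (139172 of 140992 transcripts matched with the same version, 619 with another, while 1201, with 0.303 to 0.492% of reads, matched no gene and were dropped) and rounded. Genotypes were compared with the quasi-likelihood test of edgeR 4.0.16 (R 4.3.3) after TMM scaling and filterByExpr with its minimum count of 10, and the Benjamini-Hochberg adjustment ran over 12524 genes. Genes were called at a threshold of 0.05 on this value and 1.5 on the fold. DESeq2 1.42.0 was an alternative, as were other scalings, filters, thresholds, length offsets, the replicate number as a block and each mouse left out. TPM served to compare genes. Each mouse counted as 1 sample, as the labels have it, and no pair of files within a genotype looked like a library deposited again (chi-square of at least 16.9 per gene). The test was also run on simulated counts with known changes. These had the same spread in every mouse and no mouse that stood apart like KO mouse 1, so nothing about the fits here is drawn from them. Transcripts were aligned with biopython 1.88. The genes of the set and the lists were chosen with earlier results of these data known. Beside the 10 genes and *Sirt7*, the text names in each list up to 2 genes with the largest positive and up to 2 with the largest negative log2 fold change at an unadjusted p-value under 0.05, and the 3 genes nearest in profile to the sum (CPM prior 0.5). No explanation was weighed, and the cause of differences among the KO mice was not tested.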

Additional observations from a re-analysis of the deposited data

How the results depend on the processing

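The sum of *Bhmt* and *Gm5096* was higher in *Sirt7* KO mice under all 15 alternatives, with a log2 fold change of 1.31 to 1.43 with all mice and of 0.95 to 1.71 with each mouse left out. It passed the test with no filter on low counts (1.42), in DESeq2 with length offsets (1.43) and without KO mouse 1. All other genes of the set kept their direction, except *Pemt*, whose log2 fold change was below 0 with upper quartile scaling (-0.0079), total counts (-0.10), a mean of at least 50 counts (-0.0013), length offsets in edgeR (-0.094), DESeq2 with length offsets (-0.086) and the replicate block (-0.0024), and ran from -0.087 to 0.11 with each mouse left out. Total counts moved the median over all tested genes from -0.0061 with TMM to -0.11, to which the values under total counts are relative.

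The number of genes called, 1 over all genes, was 2 with total counts, 633 with no filter, 2 with length offsets in edgeR, 257 and 240 in DESeq2 without and with length offsets, 925 at a threshold of 0.05 on the unadjusted p-value with the same fold, and 0 to 252 with each mouse left out. It was 252 without KO mouse 1, 2 without WT mouse 1 and 0 without any of the other mice. As shares of all genes, the calls were 2.11% and 1.81% in DESeq2 without and with length offsets and 1.95% without KO mouse 1. At the unadjusted threshold, 925 of the 12524 tested genes were called. The share of all genes called with no filter was not counted, so nothing is read from calls of the set and the lists in that fit. Of the 10 genes of the set, 0 were called, and 3 with no filter, 1 and 2 in DESeq2 without and with offsets, 3 at the unadjusted threshold and 0 to 3 with each mouse left out (*Bhmt*, *Gm5096* and *Cth* without KO mouse 1). Of the other pathway genes, 0 were called, and 10 with no filter, 3 and 1 in DESeq2, 11 at the unadjusted threshold and 0 to 7 with each mouse left out. The cause of these differences was not tested.

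The labels give both genotypes the numbers 1 to 3, but mice with the same number did not all deviate together from their group means (correlations of 0.065, 0.080 and -0.044), and not every mouse correlated best with its own number. With the replicate number as a block, 41 of the 12524 tested genes were called, among them 1 of the set, *Gm5096* (adjusted p = 0.0088 in edgeR). This gene passed the filter only through its KO reads, so nothing is read from its call. The sum of *Bhmt* and *Gm5096* was not called in that fit, with a log2 fold change of 1.34 (adjusted p = 0.10 in edgeR).

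The comparison rests on 3 mice per genotype, of which KO mouse 1 stood apart from the other KO mice and correlated better with WT mice 2 and 3. *Mtr* had only 22 to 37 reads per mouse, and *Gm5096* had 0 in WT mice and 29 in KO mouse 1. Reads from stretches that *Bhmt* shares with *Gm5096*, or *Ahcy* with *Gm4737*, cannot be assigned by sequence, so values of single copies rest on Salmon's estimates.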
